A study of Mus musculus with 30 samples.

Results

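Small intestinal CD34+ fibroblasts (FB) were compared with small intestinal Fgfr2+ FB sorted as CD34-negative cells, by bulk RNA-seq with 3 libraries of each population. The 6 libraries were chosen by their sample labels from the 30 libraries of a mouse study that sorted 10 mesenchymal stromal populations from the small intestine and the colon. The labels describe both populations as negative for ESAM-1 with intermediate PDGFRα, so CD34 was the antigen that separated them, and FGFR2 was not itself stained for. By its label the CD34+ gate held 2 kinds of cells, Igfbp5+ FB and CD81+ FB, and a difference from Fgfr2+ FB may come from either kind. The mice were untreated C57BL/6Nrj animals aged 8 to 10 weeks, and the tissue was the lamina propria. Dead cells were gated away first, as were cells with lineage markers, CD31, BP3, EpCAM or high NCAM. The RNA was amplified over the whole transcriptome before the Ovation Ultralow libraries were made, and the reads carried no molecular barcodes. The labels speak of 3 individual mice without stating that a replicate number marks a mouse, so p-values here measure the spread between these libraries.

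Fibroblasts of the intestinal mucosa deposit its matrix and send signals to the epithelium, vessels, nerves and immune cells. Wnt ligands and R-spondins support stem cells at the crypt base, and BMP ligands favour maturation towards the villus. Secreted BMP antagonists from the stroma keep that signal low around the crypt, which makes ligands and antagonists of both pathways natural genes to read in sorted stromal populations.

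CD34+ FB libraries held 11729938, 11930055 and 9432531 estimated counts, and Fgfr2+ FB libraries held 15098412, 10286761 and 2245052. Replicate 3 of Fgfr2+ FB was thus much the shallowest, and 3 counts in it stood for 1.04 CPM (counts scaled to a common library size), against 0.210 to 0.322 in the other 5. Genes with at least 1 count numbered 18318, 17670 and 18029 in CD34+ FB and 15070, 15516 and 14924 in Fgfr2+ FB, fewer in every Fgfr2+ FB library including the deepest. The biological coefficient of variation was 0.2 within CD34+ FB and 0.631 within Fgfr2+ FB, and correlations of log2 CPM ran from 0.962 to 0.973 within the former and from 0.783 to 0.814 within the latter. Fgfr2+ FB libraries therefore differed from each other about as much as from CD34+ FB libraries, where correlations ran from 0.796 to 0.834. The 20 strongest genes took 23.2%, 19.2% and 19.4% of counts in CD34+ FB and 12.3%, 13.5% and 12.9% in Fgfr2+ FB. A single short transcript without a matching gene took 55.5%, 55.9% and 53.8% of TPM against 27.8%, 32.0% and 19.7%, and it was not among the genes tested. Mitochondrial genes took 2.1%, 3.22% and 1.84% against 2.09%, 2.64% and 2.29%, with overlapping groups. A lower level of a gene may mean fewer cells of a kind in the gate or less RNA per cell, and these cannot be told apart in bulk libraries.

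Of 14976 genes tested, 394 (2.63%) differed at an adjusted p below 0.05 with a log2 fold change beyond 1.5 in either direction. CD34+ FB were higher in 271 (1.81%) and Fgfr2+ FB in 123 (0.821%). Libraries of the 2 populations did not overlap in 4320 genes (28.8%), among them all 394, and an exact rank test of 3 against 3 cannot give a p-value below 0.1. Without the fold threshold 499 genes passed on the adjusted p alone, 316 higher in CD34+ FB and 183 in Fgfr2+ FB. Which library was left out mattered more. The count became 59, 62 and 70 without replicates 1, 2 and 3 of CD34+ FB, and 856, 769 and 840 without replicates 1, 2 and 3 of Fgfr2+ FB. Part of the first drop was set by the filter, since a gene found in CD34+ FB alone has too few libraries with counts once 1 is left out, and only 288 of the 394 could be tested in each of those fits, against 393 without an Fgfr2+ FB library. Of 139 called genes in the lists and leading sets below, 117 could be tested and 45, 46 and 48 were still called without those CD34+ FB libraries. All were tested and 134, 127 and 133 still called without those Fgfr2+ FB libraries, and losses of the second kind are given with each gene. With length-scaled counts 98 of them were still called, with all 30 libraries in 1 model 93, in a limma voom fit with a weight for each population, added after the data had been seen, 110, and when replicate numbers entered the model as blocks (replicate block) 116. Losses in the length-scaled and 30-library fits are named below for only a few genes. Others lost their calls unmentioned, such as *Adamdec1* with all 30 libraries in 1 model (edgeR adjusted p = 0.186). *Mfap5* did with length-scaled counts (edgeR adjusted p = 0.0959). Under all 17 alternative settings 287 of the 394 were tested every time, 165 higher in CD34+ FB and 122 in Fgfr2+ FB. Of these, 48 were called every time, 28 and 20 by direction, and no gene changed sign in a setting that tested it. The median log2 fold change of all genes was -0.10, and upper-quartile scaling moved it to 0.08. The balance of directions depended on the method. Upper-quartile scaling gave 383 genes higher in CD34+ FB and 107 in Fgfr2+ FB, whereas the voom fit gave 141 and 183. Among the 394, 313 reached 10 CPM in the higher population, 378 were protein coding, and 17 shared at least 50% of their 31-base stretches with other genes. Of the same genes 57 were without counts in all 3 Fgfr2+ FB libraries, where fewer genes were detected, and 1 in all 3 CD34+ FB libraries.

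**Figure D1:**
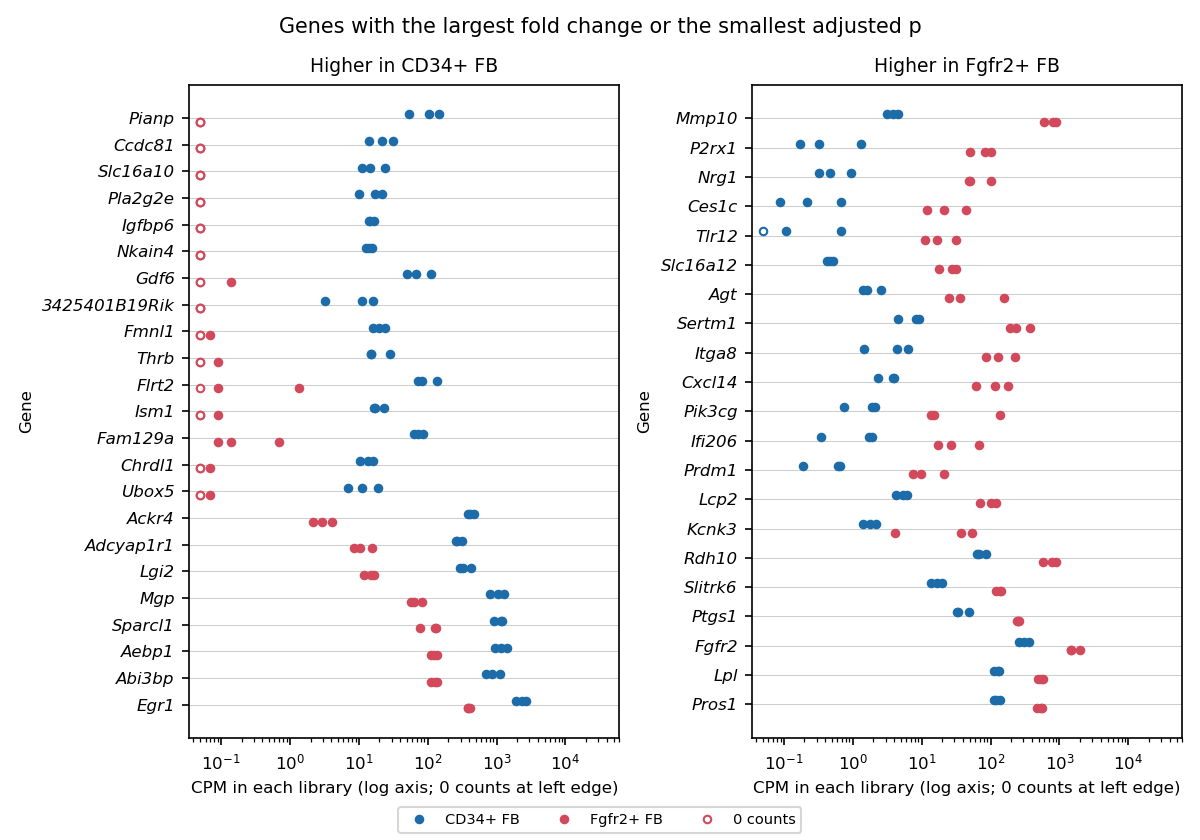
CPM in each of the 6 libraries for the genes with the largest fold changes and smallest p-values, 23 higher in CD34+ FB and 21 higher in Fgfr2+ FB. Open symbols at the left edge are libraries with 0 counts.

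The genes of the sorting antigens and of the populations' names were read first, as a check of the labels. *Cd34* (chromosome 1, 194938819 to 194961279, positions here and below in GRCm38 with GENCODE M21) was the only sorting antigen gene that passed the test (log2 fold change 2.82, SE 0.43, edgeR adjusted p = 0.0177). Since the cells were sorted on CD34, this difference was built into the gates. The call of *Cd34* was lost when any CD34+ FB library was left out. *Fgfr2* (chromosome 7, 130162451 to 133123350), which gave Fgfr2+ FB their name, stood at 258, 357 and 311 CPM in CD34+ FB and 1472, 1983 and 1489 CPM in Fgfr2+ FB. Every Fgfr2+ FB library lay above every CD34+ FB library, although the transcript was present in both (log2 fold change -2.48, SE 0.22, edgeR adjusted p = 0.00272). *Ackr4* (chromosome 9, 104084157 to 104126933), an atypical receptor that removes CCL19, CCL21 and CCL25, stood at 468, 409.8 and 381 CPM in CD34+ FB and 2.17, 2.98 and 4.15 CPM in Fgfr2+ FB. It was the sharpest difference towards CD34+ FB by p-value, with no overlap and little spread inside either group (log2 fold change 7.10, SE 0.34, edgeR adjusted p = 2.69e-04). *Cd81*, which names a component of the CD34+ gate, stood at 175, 103 and 86.7 against 0.14, 15.3 and 1.04 CPM and was not called (log2 fold change 4.33, SE 1.27, edgeR adjusted p = 0.111). Replicate 2 of Fgfr2+ FB carried most of the *Cd81* in that group, while the other 2 were close to the detection floor. Without replicate 2 the fold change of *Cd81* became 8.38 and was called, as it also was without replicate 1 (3.66) and with DESeq2 (4.40). *Igfbp5* (chromosome 1, 72857932 to 72874884), naming the other component, was at 941, 1151 and 1183 against 397, 276 and 262 CPM, without overlap (log2 fold change 1.75, SE 0.21, edgeR adjusted p = 0.00807). *Pdgfra* did not differ at the threshold, nor did *Itgb1*, *Pecam1* or *Ncam1*. In total 9 of the 11 sorting genes were tested, 1 was called, and their median was -0.39.

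Markers reported for fibroblast types were then counted, with the caution that the study that named these types includes these libraries. The lists were also chosen with earlier results of these data known and hold genes of the labels, such as *Ackr4* and *Fgfr2*. Their counts are therefore no independent check of the labels. Over all genes tested 2.63% were called, the share beside which list counts here and below are to be read. A short list without a call cannot be told apart from that share. Adventitial or CD81+ type markers had 15 of 16 members tested, 8 called higher in CD34+ FB and 1 in Fgfr2+ FB, and a median of 3.75, or 2.26 when members without counts in a group were set to their detection bound. *Cd248*, an endosialin of perivascular and adventitial fibroblasts, read 949, 1191 and 936 against 134, 34.9 and 50.9 CPM (log2 fold change 3.75, SE 0.49, edgeR adjusted p = 0.0106). *Mfap5* (179.8, 163 and 156 against 7.48, 2.62 and 21.1 CPM, log2 fold change 3.99, SE 0.71, edgeR adjusted p = 0.0295) and *Pi16* (35.9, 33.9 and 16 against 0.699, 0 and 0.346 CPM, log2 fold change 6.21, SE 1.06, edgeR adjusted p = 0.0263), an inhibitor-like secreted protein of adventitial cells, separated the groups as fully. *Pi16* became 8.21 without replicate 1 of Fgfr2+ FB and was not called in the voom fit. *Ly6c1* was called as well (27.4, 25.7 and 22.7 against 0.559, 0.632 and 0.692 CPM, log2 fold change 5.27, SE 0.56, edgeR adjusted p = 0.00464). *Dpt*, encoding the collagen-binding dermatopontin, was abundant in both populations and higher in CD34+ FB (4832, 4212 and 4378 against 927, 1104 and 657 CPM, log2 fold change 2.26, SE 0.21, edgeR adjusted p = 0.00276). The member that ran the other way was *Procr*, the protein C receptor, at 6.58, 8.46 and 5.16 against 83.5, 126 and 16.6 CPM (log2 fold change -3.53, SE 0.69, edgeR adjusted p = 0.0396), no longer called without replicate 2 of Fgfr2+ FB. Pericryptal or Igfbp5+ type markers, 7 of 7 tested, had only *Igfbp5* called and a median of 1.40, and *Col15a1* and *Sfrp1* were not called. Villus or Fgfr2+ type markers, 9 of 9 tested, had 6 called, all higher in Fgfr2+ FB, and a median of -2.48. *Adamdec1*, a metalloprotease-like protein of gut stroma, read 5014, 6148 and 5540 against 22607, 19069 and 16052 CPM (log2 fold change -1.85, SE 0.17, edgeR adjusted p = 0.00272), so that CD34+ FB also carried a large amount of it.

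The largest differences towards CD34+ FB were genes with few or no counts in Fgfr2+ FB, for which only a lower bound or a counting ratio can be given. These bounds and intervals cover counting error alone, and amplification adds error that they do not include. *Pianp* (chromosome 6, 124996694 to 125003096), encoding a neural membrane protein that binds PILRα, stood at 106, 146 and 53.1 CPM in CD34+ FB and 0, 0 and 0 CPM in Fgfr2+ FB, at least 201-fold. *Gdf6* (chromosome 4, 9844372 to 9862345), a BMP-family ligand, read 110.4, 67.7 and 50.4 against 0.14, 0 and 0 CPM (ratio 1087, 95% counting interval 300.5 to 8978). Both had at most 2 counts over all Fgfr2+ FB libraries. The filter keeps genes this sparse there only if every CD34+ FB library holds 6 or more counts. *Ccdc81* was higher by at least 44.6-fold, the amino acid carrier *Slc16a10* by at least 32.9-fold, the secreted phospholipase *Pla2g2e* by at least 32.3-fold and *Nkain4* by at least 28.0-fold. The formin *Fmnl1* (15.9, 24.3 and 20 against 0.0699, 0 and 0 CPM, ratio 571, 95% counting interval 102 to 22576), the thyroid hormone receptor *Thrb* (28.6, 15.2 and 15 against 0, 0.0903 and 0 CPM, ratio 555, 95% counting interval 99.3 to 21969) and the secreted isthmin *Ism1* (23.2, 17.0 and 16.9 against 0, 0.0903 and 0 CPM, ratio 538, 95% counting interval 96.2 to 21289.9) had a single count in Fgfr2+ FB. *Ubox5* (11.2, 19.3 and 6.88 against 0.0699, 0 and 0 CPM, ratio 364, 95% counting interval 65.0 to 14431), a ubiquitin ligase gene, and the unnamed *3425401B19Rik* (11.1, 16 and 3.22 against 0, 0 and 0 CPM, at least 19.9-fold) were sparser and varied more within CD34+ FB, and the latter was not called with the replicate block. *Fam129a*, a stress-response gene, stood at 86.8, 73.4 and 64.2 against 0.14, 0.0903 and 0.692 CPM (ratio 425, 95% counting interval 182 to 1309.8). *Flrt2*, an adhesion and guidance molecule, stood at 137, 72.0 and 81.9 against 0, 0.0903 and 1.38 CPM (log2 fold change 8.62, SE 1.13, edgeR adjusted p = 0.0109), its few Fgfr2+ FB counts lying mostly in replicate 3, without which the fold change of *Flrt2* became 10.86. In the voom fit *Pianp*, *Gdf6*, *3425401B19Rik*, *Flrt2* and *Ubox5* were not called.

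Besides *Ackr4*, further genes took the smallest p-values towards CD34+ FB. *Mgp* (chromosome 6, 136872435 to 136875823), encoding matrix Gla protein, an inhibitor of calcification, stood at 1267, 791 and 1044 CPM in CD34+ FB and 81.8, 58.3 and 63.7 CPM in Fgfr2+ FB (log2 fold change 3.86, SE 0.26, edgeR adjusted p = 0.00131). *Aebp1* (chromosome 11, 5861947 to 5872088), a collagen-binding matrix protein gene, read 1403, 1144 and 961 against 137, 124 and 112 CPM (log2 fold change 3.17, SE 0.21, edgeR adjusted p = 0.00131). In both genes the lowest CD34+ FB library exceeded the highest Fgfr2+ FB library several times. *Lgi2*, a leucine-rich secreted protein gene, read 420.4, 295 and 329 against 11.9, 15.1 and 16.6 CPM (log2 fold change 4.52, SE 0.28, edgeR adjusted p = 0.00131). *Adcyap1r1* (chromosome 6, 55451978 to 55501451), the PAC1 receptor for the neuropeptide PACAP, read 269.6, 311 and 261 against 10.3, 8.49 and 15.6 CPM (log2 fold change 4.57, SE 0.32, edgeR adjusted p = 0.00150). This receptor showed narrow groups and a wide gap between them. *Sparcl1* (1171, 1213 and 919.6 against 127, 132 and 76.8 CPM, log2 fold change 3.24, SE 0.25, edgeR adjusted p = 0.00236) and *Abi3bp* (1137, 864 and 711 against 139, 129 and 111 CPM, log2 fold change 2.77, SE 0.23, edgeR adjusted p = 0.00260), genes of matricellular and matrix proteins, were also among them. *Egr1* and *Fam129a*, which had p-values in the same range, are described with their groups.

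Towards Fgfr2+ FB the sharpest gene was *Mmp10* (chromosome 9, 7502352 to 7510240), encoding stromelysin 2, a secreted protease of matrix proteins. It stood at 3.91, 4.62 and 3.12 CPM in CD34+ FB and 802, 905 and 593 CPM in Fgfr2+ FB (log2 fold change -7.68, SE 0.30, edgeR adjusted p = 1.05e-04). It was detected at low levels in each CD34+ FB library and was high in each Fgfr2+ FB library. *P2rx1* (chromosome 11, 72999103 to 73015200), an ATP-gated cation channel, was at 1.33, 0.175 and 0.322 against 83.4, 102 and 50.9 CPM (log2 fold change -7.05, SE 0.77, edgeR adjusted p = 0.00543). The fold change of *P2rx1* became -8.31 without replicate 1 of CD34+ FB. *Sertm1*, a small membrane protein gene, read 4.48, 8.38 and 9.24 against 372, 238 and 195 CPM (log2 fold change -5.24, SE 0.41, edgeR adjusted p = 0.00236). *Itga8* (chromosome 2, 12106632 to 12301922), the integrin chain that binds nephronectin in basement membranes, read 6.38, 1.48 and 4.41 against 130.3, 223 and 85.1 CPM (log2 fold change -5.22, SE 0.63, edgeR adjusted p = 0.00781). All 3 separated the groups with room to spare, although *Itga8* spread within both. *Lcp2* (4.29, 5.32 and 6.23 against 120.2, 103 and 69.5 CPM, log2 fold change -4.27, SE 0.36, edgeR adjusted p = 0.00269), the SLP-76 adaptor best known from leukocytes, was higher in Fgfr2+ FB without overlap. *Lpl*, lipoprotein lipase, read 113, 128 and 134 against 539, 572 and 488 CPM (log2 fold change -2.16, SE 0.18, edgeR adjusted p = 0.00272), and *Pros1*, anticoagulant protein S, read 138, 113 and 119 against 546, 475 and 558 CPM (log2 fold change -2.16, SE 0.20, edgeR adjusted p = 0.00272). *Slitrk6*, a neuronal-type adhesion receptor, read 19.5, 16.8 and 13.9 against 142, 122 and 138 CPM (log2 fold change -3.07, SE 0.27, edgeR adjusted p = 0.00272).

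Other genes with large fold changes towards Fgfr2+ FB were less even among the libraries. *Agt*, encoding angiotensinogen, read 2.57, 1.40 and 1.61 against 158, 35.6 and 25.3 CPM (log2 fold change -5.33, SE 0.81, edgeR adjusted p = 0.0175), and without replicate 1 of Fgfr2+ FB its fold change became -4.11. *Pik3cg*, a PI3-kinase chain known from leukocytes, read 2.1, 1.92 and 0.752 against 139.5, 13.9 and 14.9 CPM (log2 fold change -5.16, SE 1.07, edgeR adjusted p = 0.0460), and the same omission brought it to -3.25. Replicate 1 was thus the outstanding library for both. *Ifi206* (1.91, 0.349 and 1.72 against 69.0, 17.4 and 26.6 CPM, log2 fold change -4.88, SE 0.84, edgeR adjusted p = 0.0267), *Tlr12* (0.667, 0 and 0.107 against 16.9, 32.1 and 11.4 CPM, log2 fold change -6.29, SE 1.18, edgeR adjusted p = 0.0346) and *Ces1c* (0.667, 0.0873 and 0.215 against 43.9, 21.5 and 11.8 CPM, log2 fold change -6.32, SE 0.93, edgeR adjusted p = 0.0155) were low in CD34+ FB throughout. *Tlr12* became -8.38 without replicate 1 of CD34+ FB, which held most of its counts there, and *Ces1c* became -7.36 in the same fit. Of the genes in this paragraph, only *Slc16a12*, given below, was called in the fits that left out a CD34+ FB library. The others were called in none of those fits. Without replicate 1 of Fgfr2+ FB, *Ces1c* became -5.72 and *Ifi206* became -4.15, both still called. *Slc16a12*, a creatine carrier gene, was even at 0.476, 0.524 and 0.430 against 32.0, 18 and 27.3 CPM (log2 fold change -5.78, SE 0.59, edgeR adjusted p = 0.00384). *Prdm1*, encoding the repressor BLIMP-1, was lower but separate at 0.191, 0.611 and 0.645 against 9.72, 7.59 and 20.8 CPM (log2 fold change -4.76, SE 0.85, edgeR adjusted p = 0.0303). The potassium channel *Kcnk3* (1.81, 2.18 and 1.40 against 36.8, 54.6 and 4.15 CPM, log2 fold change -4.19, SE 0.90, edgeR adjusted p = 0.0495) lost its call without replicate 2 of Fgfr2+ FB. Neither *Kcnk3* nor *Prdm1* was called with the replicate block.

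**Figure D2:**
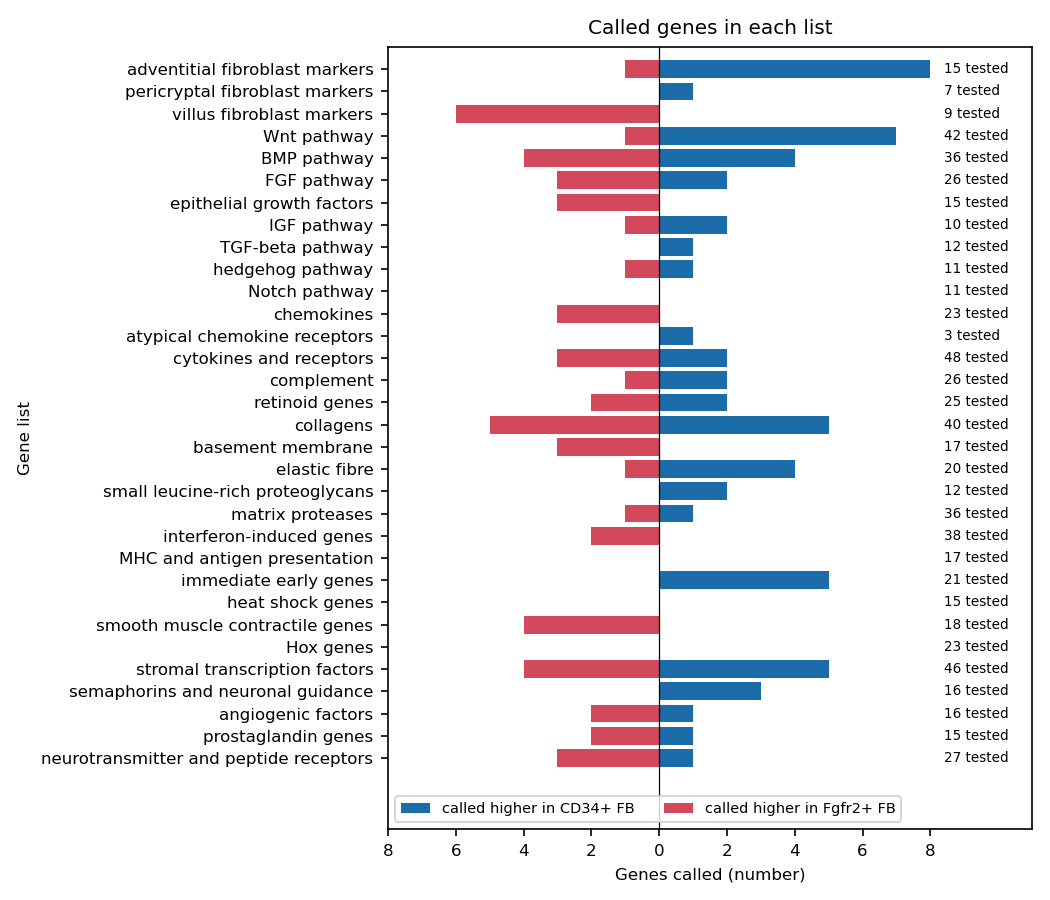
Members of each gene list called higher in CD34+ FB or in Fgfr2+ FB, with the number tested. Examples are 8 and 1 of 15 adventitial markers and 0 and 6 of 9 villus markers. Of all genes tested, 2.63% were called.

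Among Wnt pathway genes, 42 of 62 were tested, 7 were called higher in CD34+ FB and 1 in Fgfr2+ FB, and the median was 0.49. The 7 tested ligands had a median of -0.13, which upper-quartile scaling turned to 0.03, and 1 was called. That ligand was *Wnt4* (chromosome 4, 137277489 to 137299726), at 8.48, 11.2 and 11.6 CPM in CD34+ FB and 259.6, 116 and 150.1 CPM in Fgfr2+ FB (log2 fold change -4.13, SE 0.38, edgeR adjusted p = 0.00272). All Fgfr2+ FB libraries held more than 100 CPM of *Wnt4*, and no CD34+ FB library reached 12. *Wnt2b* leaned towards CD34+ FB without reaching the fold threshold (612, 664 and 507 against 296, 303 and 198 CPM, log2 fold change 1.1, SE 0.22, edgeR adjusted p = 0.0397). R-spondins amplify Wnt signals at their receptors, and *Rspo1* was called higher in CD34+ FB at 14, 25.0 and 11.6 against 2.03, 1.35 and 1.04 CPM (log2 fold change 3.42, SE 0.64, edgeR adjusted p = 0.0338). *Rspo3* read 98.1, 96.0 and 82.0 against 28.7, 18.9 and 3.11 CPM and was not called (log2 fold change 2.37, SE 0.63, edgeR adjusted p = 0.0824), although it was with DESeq2 and without replicate 1 or replicate 3 of Fgfr2+ FB. The 3 tested agonists had a median of 3.42.

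Wnt antagonists were called only towards CD34+ FB, 2 of 9 tested, with a median of 0.93. *Dkk2* (chromosome 3, 132085292 to 132180304), which blocks the LRP co-receptors, read 307, 229.9 and 183 against 14.1, 5.42 and 8.99 CPM (log2 fold change 4.59, SE 0.42, edgeR adjusted p = 0.00272). *Sfrp4*, a decoy for Wnt ligands, was at 6.48, 5.58 and 6.88 against 0, 0 and 0 CPM, at least 12.5-fold. Having no counts in Fgfr2+ FB, *Sfrp4* could pass the filter only with counts in every CD34+ FB library. *Sfrp1*, abundant in both populations, was not called (8007, 9466 and 5932 against 4403, 4531 and 2677 CPM, log2 fold change 0.95, SE 0.25, edgeR adjusted p = 0.0755), and neither was *Dkk3*. *Frzb*, another decoy for Wnt ligands, leaned the other way (15.4, 18.2 and 20.4 against 111, 62.4 and 32.5 CPM, log2 fold change -1.98, SE 0.45, edgeR adjusted p = 0.0590), and was called with DESeq2, with voom, with the stricter count filter and without replicate 3 of Fgfr2+ FB. Of 17 receptors tested, 3 were called, all higher in CD34+ FB, with a median of 0.41. *Fzd1* read 1681, 1587 and 1321 against 278, 373 and 174 CPM (log2 fold change 2.41, SE 0.28, edgeR adjusted p = 0.00704), and *Fzd4* read 104, 77.8 and 72.2 against 15, 18.3 and 16.3 CPM (log2 fold change 2.29, SE 0.31, edgeR adjusted p = 0.0113). *Ror1* was barely over the threshold (log2 fold change 1.64, SE 0.35, edgeR adjusted p = 0.0495) and lost its call without replicate 2 of Fgfr2+ FB and under RLE scaling. Of 6 Wnt target genes tested, with a median of 0.47, only *Nkd1* was called, higher in CD34+ FB (39.9, 32.4 and 37.6 against 3.57, 7.22 and 8.65 CPM, log2 fold change 2.44, SE 0.49, edgeR adjusted p = 0.0416). With the replicate block *Rspo1*, *Sfrp4*, *Ror1* and *Nkd1* lost their calls, and with voom *Rspo1*, *Fzd4*, *Ror1* and *Nkd1* did.

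BMP pathway genes went both ways, with 36 of 46 tested, 4 called in each direction and a median of 0.06. Of 10 ligands tested, with a median of 1.04, the called ones split by member. *Bmp5* (chromosome 9, 75775364 to 75900310) stood at 110, 111 and 90.7 CPM in CD34+ FB and 449, 392 and 377 CPM in Fgfr2+ FB (log2 fold change -2.03, SE 0.19, edgeR adjusted p = 0.00301). *Bmp7* was at 13.1, 11.5 and 13.4 against 169.7, 65.7 and 46.7 CPM (log2 fold change -2.94, SE 0.50, edgeR adjusted p = 0.0258), and *Bmp3* was at 15.1, 16.4 and 16.3 against 85.7, 43.8 and 83.7 CPM (log2 fold change -2.22, SE 0.37, edgeR adjusted p = 0.0234). These 3 ligands were higher in Fgfr2+ FB, *Bmp5* with even libraries and *Bmp7* with replicate 1 well above the others. Besides *Gdf6*, *Bmp6* was higher in CD34+ FB (162, 164 and 177 against 68.6, 57.4 and 28.4 CPM, log2 fold change 1.64, SE 0.32, edgeR adjusted p = 0.0396), but was not called without replicate 2 or without replicate 3 of Fgfr2+ FB. *Bmp4*, abundant in both populations, overlapped (997, 1024 and 961 against 1902, 1025 and 852 CPM, log2 fold change -0.40, SE 0.28, edgeR adjusted p = 0.507), and *Bmp2* leaned to CD34+ FB without being called (109, 96.4 and 111 against 14.5, 22 and 56.0 CPM, log2 fold change 1.71, SE 0.51, edgeR adjusted p = 0.120). *Bmp2* was called with DESeq2, with voom and without replicate 3 of Fgfr2+ FB, where its fold change became 2.49.

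Antagonists of BMP ligands were called only towards CD34+ FB, 2 of 12 tested, though their median of 0.06 was near that of all genes. *Grem1* (chromosome 2, 113746164 to 113758646), encoding gremlin 1, stood at 1252, 1000 and 886 CPM in CD34+ FB and 37.7, 88.2 and 61.2 CPM in Fgfr2+ FB (log2 fold change 4.0, SE 0.36, edgeR adjusted p = 0.00272). Its lowest CD34+ FB library was far above its highest Fgfr2+ FB library. *Chrdl1*, encoding a chordin-like antagonist, was at 16.3, 13.5 and 10.6 against 0.0699, 0 and 0 CPM (ratio 384, 95% counting interval 68.6 to 15217). *Fstl1*, *Twsg1* and *Nbl1* showed no called difference. None of 8 BMP receptors was called (median 0.22), and of 6 targets (median -0.33) *Id3* was higher in Fgfr2+ FB (34.6, 28.5 and 27.9 against 120, 107 and 57.8 CPM, log2 fold change -1.70, SE 0.33, edgeR adjusted p = 0.0372), but not called with the replicate block.

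FGF pathway genes had 26 of 39 members tested, 2 called higher in CD34+ FB and 3 in Fgfr2+ FB, and a median of -0.02, which became 0.13 under upper-quartile scaling. *Fgf10* (chromosome 13, 118669791 to 118792115), a mesenchymal ligand of the epithelial form of FGFR2, was at 15.8, 19.8 and 16.8 against 83.3, 64.3 and 42.2 CPM (log2 fold change -1.91, SE 0.35, edgeR adjusted p = 0.0327). This call was lost with the replicate block (adjusted p of edgeR 0.0732), with length-scaled counts (0.0552) and with all 30 libraries in 1 model (0.268). *Fgf13*, an intracellular family member, ran the other way at low levels (7.81, 11.4 and 11.1 against 1.19, 1.26 and 0.692 CPM, log2 fold change 3.16, SE 0.66, edgeR adjusted p = 0.0462), and *Fgf2* was not called. *Fgfr3* was sparse (6.10, 3.14 and 9.67 against 0.210, 0 and 0 CPM, ratio 57.3, 95% counting interval 19.3 to 280.2). Its fitted fold change of 5.85 rested on 3 counts in replicate 1 of Fgfr2+ FB, became 8.81 without that library, and lost its call without replicate 3. *Etv1*, a factor induced by FGF signals, was higher in Fgfr2+ FB (27.2, 25.2 and 24.8 against 86.7, 128 and 123 CPM, log2 fold change -2.20, SE 0.28, edgeR adjusted p = 0.0100), and the feedback inhibitor *Spry1* leaned the same way below the fold threshold (log2 fold change -1.18, SE 0.24, edgeR adjusted p = 0.0447). The 9 target genes tested had a median of -1.18. Under the replicate block and under voom *Fgf13* and *Fgfr3* were not called.

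Growth factors with epithelial receptors had 15 of 17 members tested, none called higher in CD34+ FB, 3 in Fgfr2+ FB and a median of -0.47. *Nrg1* (chromosome 8, 31814551 to 32884029), encoding neuregulin 1, a ligand of ERBB3 and ERBB4, stood at 0.476, 0.960 and 0.322 CPM in CD34+ FB and 103, 49.4 and 49.8 CPM in Fgfr2+ FB (log2 fold change -6.85, SE 0.61, edgeR adjusted p = 0.00272). No CD34+ FB library reached 1 CPM of *Nrg1*, while all Fgfr2+ FB libraries held at least 49. *Hgf*, the hepatocyte growth factor gene, read 64.3, 56.7 and 52.1 against 286, 164 and 143 CPM (log2 fold change -1.83, SE 0.30, edgeR adjusted p = 0.0218). *Kitl*, the stem cell factor gene, read 39.0, 43.0 and 40.1 against 142, 175 and 191 CPM (log2 fold change -2.13, SE 0.24, edgeR adjusted p = 0.00671), the most even of the 3. *Hgf* and *Kitl* lost their calls with all 30 libraries in 1 model, and *Hgf* also with length-scaled counts. *Ereg*, another ERBB ligand gene, was not called. *Igf1* was higher in Fgfr2+ FB in every library but below the fold threshold (390.1, 257 and 350.4 against 735, 545 and 780.1 CPM, log2 fold change -1.12, SE 0.24, edgeR adjusted p = 0.0495).

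IGF pathway genes had 10 of 12 members tested, 2 called higher in CD34+ FB and 1 in Fgfr2+ FB, and a median of 0.58. All 3 were binding proteins, which hold IGFs in the tissue. *Igfbp3* (chromosome 11, 7206086 to 7213923) stood at 109, 231 and 196 CPM in CD34+ FB and 1891, 2922 and 1249 CPM in Fgfr2+ FB (log2 fold change -3.56, SE 0.40, edgeR adjusted p = 0.00616), and *Igfbp6* stood at 16.5, 14.7 and 13.9 against 0, 0 and 0 CPM, at least 29.7-fold. With *Igfbp5* higher in CD34+ FB, the binding proteins were divided between the populations, while *Igfbp4*, *Igfbp7*, *Igf1r* and *Igf2r* were not called. TGFβ pathway genes, 12 of 13 tested, had a median of 0.24 and a single call, *Tgfb3*, higher in CD34+ FB (276, 234 and 245 against 52.4, 48.9 and 72.6 CPM, log2 fold change 2.05, SE 0.25, edgeR adjusted p = 0.00829). *Tgfb2*, the 4 TGFβ receptors and the latency proteins *Ltbp1*, *Ltbp3* and *Ltbp4* were not called.

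Hedgehog pathway genes had 11 of 14 members tested, 1 called in each direction and a median of 0.33. *Ptch1* (chromosome 13, 63508328 to 63573598), receptor and target of the pathway, was at 513, 706 and 584 CPM in CD34+ FB and 2647, 2415 and 1704 CPM in Fgfr2+ FB (log2 fold change -1.97, SE 0.21, edgeR adjusted p = 0.00547). All Fgfr2+ FB libraries exceeded 1600 CPM, with no overlap. *Gli1*, also a target, overlapped between the groups and was not called (53.7, 108 and 66.4 against 116, 151 and 60.5 CPM, log2 fold change -0.58, SE 0.39, edgeR adjusted p = 0.488), and the 4 effectors had a median of -0.10 that became 0.07 under upper-quartile scaling. *Cdon*, a co-receptor gene, was at 5.62, 2.62 and 4.41 against 0, 0 and 0 CPM, at least 8.33-fold. *Hhip*, which sequesters hedgehog ligands, leaned to CD34+ FB without a call (75.4, 70.9 and 34.9 against 9.58, 17.3 and 16.3 CPM, log2 fold change 2.00, SE 0.44, edgeR adjusted p = 0.0549). The call of *Cdon* was lost with the replicate block and with voom. Notch pathway genes, 11 of 14 tested, gave no call, against 2.63% of all genes, with a median of 0.02.

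**Figure D3:**
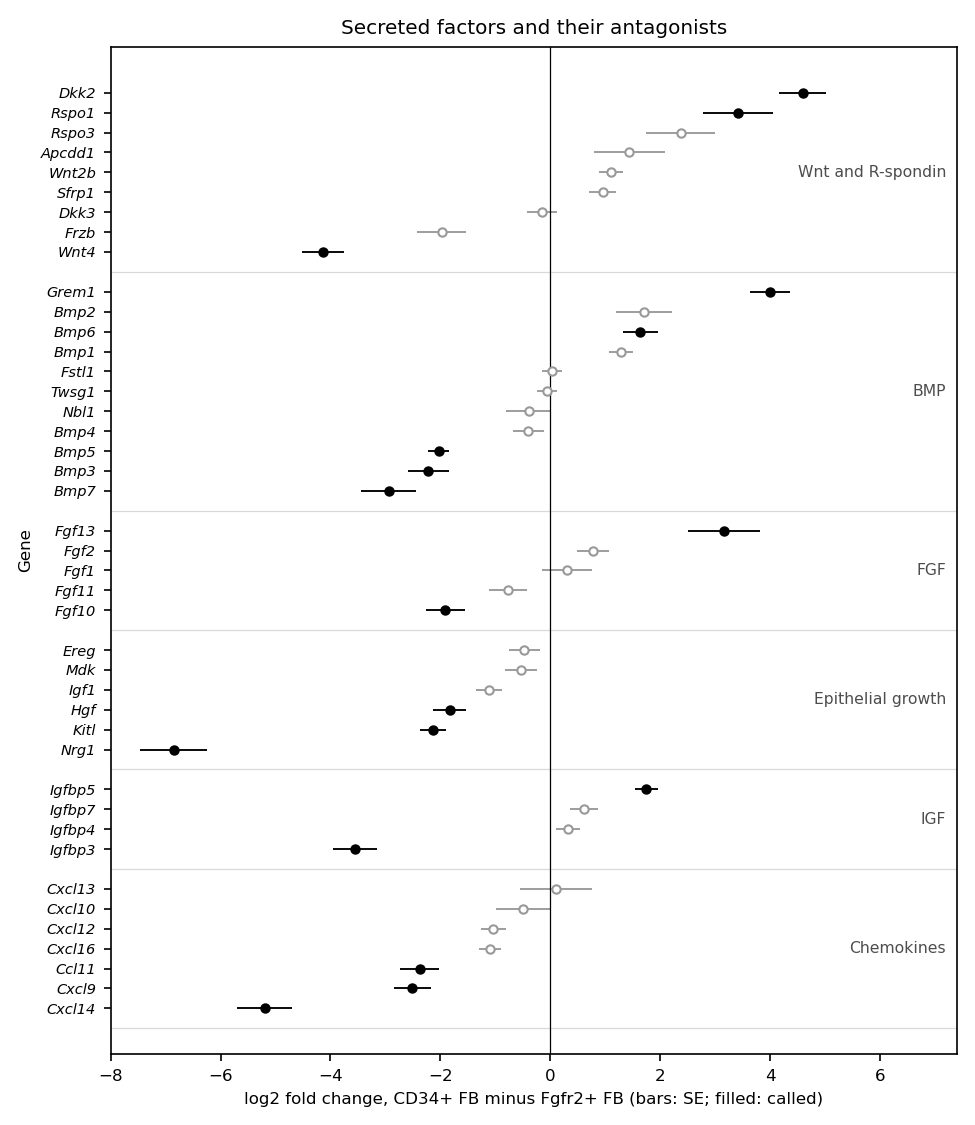
Log2 fold change with SE of secreted factors, from *Nrg1* at -6.85 to *Dkk2* at 4.59 and *Grem1* at 4.0. Factors for which only a bound or a counting ratio exists are left out.

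Chemokine genes had 23 of 38 members tested, none called higher in CD34+ FB, 3 called higher in Fgfr2+ FB and a median of -0.65. *Cxcl14* (chromosome 13, 56288643 to 56296551), a chemokine of barrier tissues, stood at 3.81, 2.36 and 3.98 CPM in CD34+ FB and 118, 179 and 60.9 CPM in Fgfr2+ FB (log2 fold change -5.20, SE 0.50, edgeR adjusted p = 0.00303). *Ccl11*, the eosinophil attractant eotaxin, read 322, 391 and 274 against 2668, 1343 and 949 CPM (log2 fold change -2.38, SE 0.36, edgeR adjusted p = 0.0177). *Cxcl9*, an interferon-induced attractant of CXCR3-bearing T cells, read 27.2, 37.6 and 27.4 against 248, 129.8 and 126 CPM (log2 fold change -2.51, SE 0.34, edgeR adjusted p = 0.0115). None of the 3 overlapped, and the highest library of *Ccl11* and *Cxcl9* was replicate 1 of Fgfr2+ FB. *Cxcl12* leaned towards Fgfr2+ FB (504, 421 and 449 against 1241, 746 and 734 CPM, log2 fold change -1.04, SE 0.23, edgeR adjusted p = 0.0552), whereas *Cxcl13* (106, 112 and 27.2 against 101, 24.4 and 93.1 CPM, log2 fold change 0.10, SE 0.65, edgeR adjusted p = 0.950) and *Cxcl10* varied within the groups. Of 4 atypical chemokine receptors 3 were tested, with a median of 2.3. *Ackr4* was the only call among them, and *Ackr3* leaned the other way (log2 fold change -1.16, SE 0.33, edgeR adjusted p = 0.10).

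Cytokine and cytokine receptor genes had 48 of 61 members tested, 2 called higher in CD34+ FB and 3 in Fgfr2+ FB, and a median of -0.16 that became 0.03 under upper-quartile scaling. *Lifr*, the receptor chain of leukaemia inhibitory factor, read 167, 112 and 124 against 888, 508 and 536 CPM (log2 fold change -2.32, SE 0.28, edgeR adjusted p = 0.00777). *Osmr*, the oncostatin M receptor chain, showed the same order just under the fold threshold (303, 295 and 234 against 748, 694 and 697 CPM, log2 fold change -1.43, SE 0.18, edgeR adjusted p = 0.00948), and their shared partner *Il6st* did not differ. *Flt3l*, a dendritic cell growth factor gene, was higher in Fgfr2+ FB (60.8, 117 and 54.4 against 258, 441 and 176 CPM, log2 fold change -1.98, SE 0.42, edgeR adjusted p = 0.0493), not so without replicate 2 of that group. *Il34*, a ligand of the CSF1 receptor, was called towards Fgfr2+ FB (1.62, 1.66 and 2.90 against 7.2, 46.5 and 39.4 CPM, log2 fold change -3.99, SE 0.80, edgeR adjusted p = 0.0418), but not without replicate 2 or without replicate 3 of Fgfr2+ FB, and *Csf1* was not called (323, 327 and 331 against 362, 357 and 265 CPM). *Il6* was detected in CD34+ FB alone (4.1, 5.76 and 12.8 against 0, 0 and 0 CPM, at least 14.9-fold). *Tnfsf13*, the APRIL gene, was likewise found only there (2.48, 2.18 and 3.33 against 0, 0 and 0 CPM, at least 5.26-fold), but 58% of its 31-base stretches occur in other genes and its value is uncertain. The alarmin gene *Il33* was not called (194, 203 and 169.9 against 95.4, 83.3 and 102 CPM, log2 fold change 0.95, SE 0.21, edgeR adjusted p = 0.0566). Blocking by replicate number removed the calls of *Il6*, *Il34* and *Tnfsf13*, and voom those of *Il6* and *Tnfsf13*.

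Complement genes had 26 of 36 members tested, 2 called higher in CD34+ FB and 1 in Fgfr2+ FB, and a median of 0.54. *C3* (chromosome 17, 57203970 to 57228136), the central component, stood at 10894, 9949 and 6158 CPM in CD34+ FB and 640.1, 392 and 164 CPM in Fgfr2+ FB (log2 fold change 4.45, SE 0.49, edgeR adjusted p = 0.00597). Even its lowest CD34+ FB library lay well above the highest Fgfr2+ FB library. *C6*, a part of the lytic complex, ran the other way at 10.3, 9.51 and 7.09 against 43.2, 151 and 45.7 CPM (log2 fold change -3.22, SE 0.57, edgeR adjusted p = 0.0292). *Cd55*, a membrane inhibitor of complement, was higher in CD34+ FB (499.8, 532 and 416 against 63.1, 157 and 137 CPM, log2 fold change 1.94, SE 0.35, edgeR adjusted p = 0.0327). *C4b* and *Serping1* leaned to CD34+ FB without being called, and *C1s1* overlapped.

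Retinoid genes had 25 of 34 members tested, 2 called in each direction and a median of -0.17 that became 0.12 under upper-quartile scaling. Of the 2 called towards CD34+ FB, 1 was a carrier or receptor gene that is not described here. *Rdh10* (chromosome 1, 16105774 to 16133734), the retinol dehydrogenase of the first oxidation step, stood at 67.5, 86.7 and 62.8 CPM in CD34+ FB and 879.9, 793 and 571 CPM in Fgfr2+ FB (log2 fold change -3.43, SE 0.24, edgeR adjusted p = 0.00150). *Aldh1a3* (chromosome 7, 66390890 to 66427517), a retinaldehyde dehydrogenase of the second step, read 223, 281 and 145 against 1969.9, 1649 and 921 CPM (log2 fold change -2.86, SE 0.34, edgeR adjusted p = 0.00777). Both genes were higher in all Fgfr2+ FB libraries. Of 16 retinoid enzyme genes tested, these 2 were called in this direction and 1 in the other, with a median of -0.42. *Adh1* (chromosome 3, 138260991 to 138290698), an alcohol dehydrogenase that also takes retinol, ran the other way at 337, 259.8 and 165 against 2.03, 5.78 and 5.53 CPM (log2 fold change 5.81, SE 0.53, edgeR adjusted p = 0.00272). *Lrat*, which stores retinol as esters, leaned to Fgfr2+ FB with a wide spread (57.2, 102 and 143 against 220.1, 377 and 776 CPM, log2 fold change -2.27, SE 0.53, edgeR adjusted p = 0.0615), and *Aldh1a2* overlapped. *Lrat* was called with the replicate block, with DESeq2, without a count filter and without replicate 1 of Fgfr2+ FB. Without replicate 3 of Fgfr2+ FB its fold change became -1.61.

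Collagen genes had 40 of 44 members tested, 5 called in each direction and a median of 0.33. *Col1a1* (chromosome 11, 94936224 to 94953042) stood at 37019.5, 14854 and 24435 CPM in CD34+ FB and 6062, 4937 and 5398 CPM in Fgfr2+ FB (log2 fold change 2.15, SE 0.31, edgeR adjusted p = 0.0148). *Col3a1* read 26030.3, 9083 and 18229.8 against 4909.9, 3685 and 3639 CPM (log2 fold change 2.06, SE 0.36, edgeR adjusted p = 0.0267), and *Col1a2* read 15778, 7059 and 11067 against 3949, 2886 and 3051 CPM (log2 fold change 1.71, SE 0.29, edgeR adjusted p = 0.0258). In these fibrillar genes replicate 2 of CD34+ FB was the lowest of its group and still exceeded every Fgfr2+ FB library. *Col3a1* and *Col1a2* lost their calls without replicate 2 and without replicate 3 of Fgfr2+ FB. *Col8a1* (chromosome 16, 57624258 to 57754737), a short-chain network collagen of vessel walls, had the largest fold change of the list at 634, 397 and 384 against 2.03, 2.17 and 11.8 CPM (log2 fold change 6.63, SE 0.79, edgeR adjusted p = 0.00771). *Col28a1* was sparse (3.24, 2.79 and 3.22 against 0.0699, 0 and 0 CPM, ratio 86.8, 95% counting interval 15.2 to 3465) and not called with the replicate block. Voom called none of *Col1a1*, *Col3a1*, *Col1a2* and *Col28a1*.

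Towards Fgfr2+ FB the collagen calls were beaded-filament, minor fibrillar or fibril-associated types. *Col6a4* read 30.4, 18 and 34.0 against 359, 210.1 and 129 CPM (log2 fold change -3.14, SE 0.42, edgeR adjusted p = 0.0118), and *Col6a5* read 347, 326 and 455 against 1181, 989.6 and 982 CPM (log2 fold change -1.55, SE 0.20, edgeR adjusted p = 0.00959), the latter uncalled without replicate 1 of Fgfr2+ FB or under upper-quartile scaling. The main type VI chains *Col6a1*, *Col6a2* and *Col6a3* were not called. *Col27a1* (54.6, 86.3 and 106 against 542, 525 and 253 CPM, log2 fold change -2.47, SE 0.36, edgeR adjusted p = 0.0150) and *Col24a1* (3.34, 3.49 and 5.70 against 16.4, 40.8 and 74.7 CPM, log2 fold change -3.48, SE 0.66, edgeR adjusted p = 0.0352), fibrillar types with roles in cartilage and bone, were higher in Fgfr2+ FB, as was *Col22a1* at lower levels (4.86, 6.37 and 5.16 against 21, 23.7 and 31.5 CPM, log2 fold change -2.29, SE 0.46, edgeR adjusted p = 0.0424). Basement membrane genes, 17 of 19 tested, had 3 calls, all towards Fgfr2+ FB, and a median of -0.29. *Lama1* read 50.4, 62.4 and 74.6 against 251, 244 and 198 CPM (log2 fold change -1.95, SE 0.24, edgeR adjusted p = 0.00805), *Hmcn1* read 574, 582 and 733 against 1826, 2009.8 and 1587 CPM (log2 fold change -1.59, SE 0.18, edgeR adjusted p = 0.00671) and *Nid2* read 84.8, 104 and 156 against 546, 299.5 and 241 CPM (log2 fold change -1.71, SE 0.36, edgeR adjusted p = 0.0463). Of these, *Nid2* lost its call without replicate 1 or without replicate 2 of Fgfr2+ FB. The replicate block removed the calls of *Nid2* and *Col22a1*. *Hspg2*, encoding perlecan, leaned to CD34+ FB below the fold threshold (log2 fold change 1.23, SE 0.19, edgeR adjusted p = 0.0197), and *Col4a1* overlapped.

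Elastic fibre genes, 20 of 20 tested, had 4 calls towards CD34+ FB and 1 towards Fgfr2+ FB, with a median of 1.04. *Eln* (chromosome 5, 134702593 to 134747323), the elastin gene, stood at 1543, 1109 and 1781 CPM in CD34+ FB and 233, 221 and 174 CPM in Fgfr2+ FB (log2 fold change 2.76, SE 0.23, edgeR adjusted p = 0.00269). *Fbln1*, which binds fibronectin and elastin, read 3486, 3106 and 2667 against 343, 214 and 110 CPM (log2 fold change 3.74, SE 0.39, edgeR adjusted p = 0.00402). The cross-linking enzyme gene *Loxl1* was called in the same direction (181, 120 and 175 against 57.3, 38.1 and 44.6 CPM, log2 fold change 1.70, SE 0.28, edgeR adjusted p = 0.0224), as was the microfibril gene *Mfap5* given above, but voom did not call *Loxl1*. *Fbn1* and *Mfap4* also separated the groups, with fold changes of 1.26 and 1.48 below the threshold. *Fbln7* was the exception (39.6, 31.9 and 38.6 against 180.3, 167 and 76.1 CPM, log2 fold change -2.00, SE 0.35, edgeR adjusted p = 0.0267), with *Fbln5* leaning the same way (log2 fold change -1.47, SE 0.20, edgeR adjusted p = 0.0111). Small leucine-rich proteoglycans, which organise collagen fibrils, had 12 of 14 tested, 2 called higher in CD34+ FB, none in Fgfr2+ FB and a median of 1.31. *Dcn* (13998, 11288 and 10218 against 3708, 3272 and 3009 CPM, log2 fold change 1.76, SE 0.17, edgeR adjusted p = 0.00319) and *Lum* (2068, 1366 and 1499.9 against 447, 320.4 and 406 CPM, log2 fold change 2.00, SE 0.23, edgeR adjusted p = 0.00671) were the calls, and *Bgn* overlapped. Matrix proteases and their inhibitors had 36 of 47 tested, 5.56% of them called against 2.63% of all genes. Their median of -0.07 became 0.09 under upper-quartile scaling. Besides *Mmp10*, only *Timp3* was called, an inhibitor gene higher in CD34+ FB (586, 875 and 744 against 58.4, 158 and 61.9 CPM, log2 fold change 2.92, SE 0.42, edgeR adjusted p = 0.0148). *Has2*, a hyaluronan synthase gene, was higher in Fgfr2+ FB at 15, 10.1 and 11.3 against 153, 74.4 and 99.6 CPM (log2 fold change -3.23, SE 0.37, edgeR adjusted p = 0.00671).

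Interferon-induced genes had 38 of 39 members tested and a median of -0.72. Of those tested, 2 were called (5.26%, against 2.63% of all genes), both higher in Fgfr2+ FB. Besides *Cxcl9* the call was *Gbp4*, a guanylate-binding GTPase gene, at 49.9, 42.1 and 31.9 against 286, 95.3 and 115 CPM (log2 fold change -2.06, SE 0.44, edgeR adjusted p = 0.0495), lost without replicate 1 of Fgfr2+ FB. Summed over the list, CD34+ FB held 3617, 2158 and 2341 CPM and Fgfr2+ FB held 6728, 3404 and 2963. The first replicate was the highest in each group, and the groups overlapped. Antigen presentation genes, 17 of 17 tested, gave no call, against 2.63% of all genes. Their median of -0.04 became 0.12 under upper-quartile scaling, and *H2-K1*, *H2-D1* and *B2m* had similar levels in both groups.

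Smooth muscle contractile genes had 18 of 18 members tested, 4 called, all higher in Fgfr2+ FB, and a median of -1.15. *Acta2* (chromosome 19, 34241090 to 34255590), the smooth muscle actin gene, stood at 43.9, 34.2 and 68.0 CPM in CD34+ FB and 271, 391 and 217 CPM in Fgfr2+ FB (log2 fold change -2.65, SE 0.34, edgeR adjusted p = 0.0104). *Myh11*, the smooth muscle myosin gene, read 52.0, 42.9 and 39.4 against 245, 312 and 204 CPM (log2 fold change -2.57, SE 0.25, edgeR adjusted p = 0.00318). *Synpo2* (55.3, 98.2 and 59.2 against 198, 359 and 246 CPM, log2 fold change -1.99, SE 0.33, edgeR adjusted p = 0.0255) and *Des* (23, 23.9 and 20.9 against 153, 101 and 47.4 CPM, log2 fold change -2.20, SE 0.42, edgeR adjusted p = 0.0352), the desmin gene, were also called. No library of these 4 genes crossed between the groups. *Mylk* was likewise separate but under the fold threshold (331, 317 and 358 against 811, 841 and 782 CPM, log2 fold change -1.34, SE 0.16, edgeR adjusted p = 0.00807). Summed over the 18 genes, CD34+ FB held 2365, 2525 and 2483 CPM and Fgfr2+ FB held 5376, 4744 and 4179.9.

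Stromal transcription factor genes had 46 of 52 members tested, 5 called higher in CD34+ FB and 4 in Fgfr2+ FB, and a median of -0.15 that became 0.02 under upper-quartile scaling. *Osr1* (chromosome 12, 9570116 to 9581500), a factor of mesenchymal progenitors, stood at 202, 164 and 139 CPM in CD34+ FB and 0.979, 3.88 and 3.11 CPM in Fgfr2+ FB (log2 fold change 5.96, SE 0.56, edgeR adjusted p = 0.00300). *Ebf1* (chromosome 11, 44617317 to 45008091), found in adventitial and perivascular stroma, was at 85.9, 90.1 and 58.4 against 9.51, 12.2 and 13.8 CPM (log2 fold change 2.66, SE 0.35, edgeR adjusted p = 0.0110), and *Foxp2* was at 139.8, 103 and 97.8 against 15.9, 13.3 and 20.8 CPM (log2 fold change 2.71, SE 0.32, edgeR adjusted p = 0.00777). Each was several times higher in all CD34+ FB libraries. *Pitx1*, a hindlimb and gut patterning factor, was sparse (5.53, 6.89 and 9.24 against 0, 0.0903 and 0 CPM, ratio 202, 95% counting interval 35.8 to 8001). *Zeb1* was just over the threshold (247, 241 and 216 against 105, 51.4 and 73.7 CPM, log2 fold change 1.55, SE 0.29, edgeR adjusted p = 0.0330) and not called without replicate 2 of Fgfr2+ FB. *Runx1* (chromosome 16, 92601466 to 92826149) was higher in Fgfr2+ FB at 18.5, 15.4 and 19.5 against 126, 134 and 41.9 CPM (log2 fold change -2.55, SE 0.45, edgeR adjusted p = 0.0286), and *Runx2* at 60.0, 75.1 and 54.9 against 258, 265 and 159.8 CPM (log2 fold change -1.90, SE 0.26, edgeR adjusted p = 0.0126). *Sox6* (2.48, 1.57 and 2.69 against 49.9, 12.7 and 41.9 CPM, log2 fold change -4.02, SE 0.66, edgeR adjusted p = 0.0224) and *Tbx3* (25.1, 43.0 and 24.8 against 100.3, 90.0 and 73.0 CPM, log2 fold change -1.57, SE 0.32, edgeR adjusted p = 0.0460) shared this direction, *Tbx3* without a call when replicate 1 or replicate 2 of Fgfr2+ FB was left out. *Foxf1*, *Tcf21* and *Nkx2-3*, factors of gut mesenchyme in general, were not called. *Pitx1* and *Tbx3* were not called with the replicate block, nor *Ebf1* and *Tbx3* with voom. Hox genes, 23 of 39 tested, gave no call, against 2.63% of all genes. Their median of -0.11 became 0.15 under upper-quartile scaling.

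Guidance genes had 16 of 17 members tested, 3 called, all higher in CD34+ FB, and a median of 0.78. *Slit3* (chromosome 11, 35121224 to 35708507) stood at 1635, 1465 and 1169 CPM in CD34+ FB and 328, 445 and 161 CPM in Fgfr2+ FB (log2 fold change 2.14, SE 0.35, edgeR adjusted p = 0.0224). *Slit2* read 253, 121 and 153 against 46.1, 20.9 and 52.2 CPM (log2 fold change 2.08, SE 0.43, edgeR adjusted p = 0.0463), lost without replicate 1 of Fgfr2+ FB, and *Sema3d* read 34.1, 23.9 and 28.2 against 1.05, 1.17 and 1.73 CPM (log2 fold change 4.42, SE 0.54, edgeR adjusted p = 0.00807). Neither *Slit2* nor *Sema3d* was called with voom. *Slit3* and *Slit2* encode ligands of the ROBO receptors, which were not tested as a group. The neurotrophin gene *Ntf3* leaned to Fgfr2+ FB uncalled (5.91, 9.60 and 5.59 against 89.1, 15.5 and 54.0 CPM, log2 fold change -2.97, SE 0.65, edgeR adjusted p = 0.0534). Angiogenic factor genes, 16 of 19 tested, had 1 call towards CD34+ FB and 2 towards Fgfr2+ FB, and a median of -0.08 that became 0.15 under upper-quartile scaling. *Vegfa* (chromosome 17, 46016993 to 46032369) was higher in Fgfr2+ FB at 25.0, 32.7 and 44.4 against 122, 125 and 92.7 CPM (log2 fold change -1.80, SE 0.30, edgeR adjusted p = 0.0255). *Vegfd*, a ligand of lymphatic vessels, was higher in CD34+ FB at 133, 99.0 and 88.7 against 4.96, 18.1 and 18 CPM (log2 fold change 2.90, SE 0.53, edgeR adjusted p = 0.0330). *Vegfc* depended on replicate 1 of Fgfr2+ FB (73.1, 39.2 and 55.2 against 142, 7.59 and 15.6 CPM), with a fold change of -0.02 that became 2.21 without it. *Thbs2*, an inhibitor of angiogenesis, was higher in Fgfr2+ FB (60.7, 53.1 and 138 against 469, 305 and 459 CPM, log2 fold change -2.36, SE 0.41, edgeR adjusted p = 0.0267).

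Prostaglandin genes had 15 of 17 members tested, 1 called higher in CD34+ FB and 2 in Fgfr2+ FB, and a median of -0.41. *Ptgs1* (chromosome 2, 36230426 to 36252272), encoding cyclooxygenase 1, stood at 33.6, 33.2 and 49.2 CPM in CD34+ FB and 249, 255 and 239.7 CPM in Fgfr2+ FB (log2 fold change -2.74, SE 0.25, edgeR adjusted p = 0.00272). It was even within each group. *Ptger2*, a prostaglandin E2 receptor gene, was higher in Fgfr2+ FB (9.15, 9.16 and 7.52 against 78.4, 23 and 40.5 CPM, log2 fold change -2.51, SE 0.51, edgeR adjusted p = 0.0425), and *Ptgir*, the prostacyclin receptor gene, in CD34+ FB (11.5, 15.4 and 16 against 0.419, 1.26 and 0.346 CPM, log2 fold change 4.24, SE 0.75, edgeR adjusted p = 0.0295). *Hpgd*, which degrades prostaglandins, leaned to CD34+ FB but varied in Fgfr2+ FB (245, 149.6 and 119 against 1.89, 25.9 and 7.26 CPM, log2 fold change 3.78, SE 0.86, edgeR adjusted p = 0.0577). Under the replicate block *Ptger2* and *Ptgir* lost their calls and *Hpgd* was called, and voom did not call *Ptgir*. Transmitter and peptide receptor genes had 27 of 40 tested, 1 called higher in CD34+ FB, 3 in Fgfr2+ FB and a median of -0.24. Opposite to *Adcyap1r1*, *Ednrb*, the endothelin B receptor gene, was higher in Fgfr2+ FB (15.3, 12.5 and 11.5 against 156, 48.9 and 108 CPM, log2 fold change -3.06, SE 0.46, edgeR adjusted p = 0.0160). *Avpr1a*, the vasopressin receptor gene, was higher there as well (19.2, 16.6 and 7.09 against 54.6, 89.6 and 62.6 CPM, log2 fold change -2.34, SE 0.45, edgeR adjusted p = 0.0386), except without replicate 2 of that group. *P2rx1* was the third.

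Marker genes of other cell types were summed in each library, and their part in the results above was not tested. Immune markers gave 33.0, 38.5 and 38.8 CPM in CD34+ FB and 45.6, 83.2 and 67.8 CPM in Fgfr2+ FB, led by *Cd68*, with 6 of 12 tested, none called and a median of -0.40. *Adgre1* and *Itgax* did not exceed 3 counts in any library, and *Ptprc* read 4.67, 6.46 and 5.37 against 7.48, 7.31 and 14.5 CPM. Endothelial markers gave 91.2, 90.8 and 76.3 against 68.4, 79.8 and 49.8 CPM, led by *Tek* in CD34+ FB and *Pecam1* in Fgfr2+ FB, 5 of 10 tested, none called, median -0.66. Epithelial markers gave 2.00, 2.88 and 3.87 against 1.26, 4.51 and 6.92 CPM, 3 of 14 tested, none called, median -0.55, with *Epcam* and *Krt8* at or below 3 counts everywhere. These 3 classes were sparse beside the sums of fibroblast markers. Glial markers gave 11.8, 16 and 13.3 against 25.9, 5.15 and 15.9 CPM (2 of 6 tested, none called, median -0.29). Mesothelial markers gave 2.1, 2.79 and 2.04 against 6.29, 1.44 and 4.15 CPM (1 of 6 tested, not called, median -0.25). Erythroid markers were seen as *Alas2*, at 45.5 CPM in replicate 1 of Fgfr2+ FB and below 5 elsewhere (1 of 5 tested, not called, median -2.60). Lymphoid stroma markers gave 127, 136 and 43.5 against 109, 81.8 and 125 CPM, led by *Cxcl13* (5 of 7 tested, none called, median -0.49).

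Markers shared with neighbouring stromal cells were more abundant. Those of PDGFRα hi FB gave 191, 198 and 183 CPM in CD34+ FB and 901, 629 and 671 CPM in Fgfr2+ FB, led by *Bmp5*. These were 2.87% and 11.1% of the 6639 CPM in sorted small intestinal PDGFRα hi FB. Of 9 such genes 8 were tested and 5 called, all higher in Fgfr2+ FB, with a median of -2.58. The 5 were *Bmp3*, *Bmp5*, *Bmp7*, *Sox6* and *Nrg1*, and *Wnt5a* (32.9, 34.5 and 40.8 against 40.2, 47.8 and 54.0 CPM) did not differ. Smooth muscle cell markers gave 222, 248 and 167 against 627, 843 and 526 CPM, or 1.06% and 3.33% of the 19975 CPM in sorted smooth muscle cells, with 7 of 7 tested, 3 called higher in Fgfr2+ FB and a median of -1.97. Pericyte markers gave 3972, 4226 and 3594 against 2199, 1877 and 2039 CPM, 9.29% and 4.82% of the 42310.3 CPM in sorted pericytes. *Rgs5* made up most of that sum, with means of 3803 of 3931 and 1709 of 2038 CPM (3869, 4090.3 and 3449 against 1930.1, 1419 and 1778 CPM, log2 fold change 1.09, SE 0.18, edgeR adjusted p = 0.0224), whereas the median of the 7 of 10 tested was -1.64 and none was called. Interstitial cell of Cajal markers gave 29.2, 25.7 and 26.0 against 87.7, 129 and 127 CPM, with 2 of 3 tested, *Etv1* called and a median of -1.57.

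Immediate early genes, which tissue digestion and sorting can induce, had 21 of 23 members tested, 5 called, all higher in CD34+ FB, and a median of 2.58. *Egr1* was at 2361, 1888 and 2680.2 CPM in CD34+ FB and 379, 407 and 390.2 CPM in Fgfr2+ FB (log2 fold change 2.49, SE 0.19, edgeR adjusted p = 0.00236). *Dusp1* read 367, 445 and 611 against 22.9, 31.3 and 77.5 CPM (log2 fold change 3.37, SE 0.51, edgeR adjusted p = 0.0171), and *Fos* read 146, 86.4 and 249 against 8.39, 18.7 and 17.3 CPM (log2 fold change 3.38, SE 0.51, edgeR adjusted p = 0.0170). CD34+ FB were higher in all libraries of these genes, replicate 3 most of all. *Btg2* was called too (112, 83.9 and 152 against 19.3, 28.6 and 14.5 CPM, log2 fold change 2.41, SE 0.37, edgeR adjusted p = 0.0175), as was *Junb* (56.4, 55.9 and 80.6 against 17.2, 4.06 and 9.69 CPM, log2 fold change 2.58, SE 0.54, edgeR adjusted p = 0.0478), the latter not without replicate 3 of Fgfr2+ FB. *Fos*, *Junb* and *Btg2* were not called with voom. *Fosb*, *Jun*, *Klf4* and *Zfp36* had positive fold changes without a call, although the replicate block called all 4, and *Fosl2* and *Klf6* overlapped. Summed, the 23 genes gave 4859, 4065 and 6172 CPM in CD34+ FB and 1663, 1047 and 1266 CPM in Fgfr2+ FB. Heat shock genes, 15 of 15 tested, gave no call, against 2.63% of all genes. Their median was 0.70, with sums of 2987, 2566 and 4319 against 2416, 1938 and 1895 CPM. Whether handling contributed to these differences was not tested.

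The 300 bases ending at the annotated start of 4 of the 5 called immediate early genes (GRCm38.p6, RefSeq) were read for 3 binding motifs. The window of *Egr1* is not reported here, so the matches below do not cover all called genes. A full cyclic AMP response element, TGACGTCA, occurs in 588 of 32851 such windows in the reference (1.79%), TGANTCA, the AP-1 site, in 2565 (7.81%), and the CArG box in 535 (1.63%). *Btg2* (chr1:134079106-134079405, minus strand) and *Dusp1* (chr17:26508423-26508722, minus strand) each hold 1 full cyclic AMP element, shown in capitals. *Fos* (chr12:85473640-85473939, plus strand) and *Junb* (chr8:84978699-84978998, minus strand) hold no full match to any of the 3. Partial sites and bases further upstream were not read. A match describes the sequence only, and whether it is bound in these cells was not tested.
Btg2: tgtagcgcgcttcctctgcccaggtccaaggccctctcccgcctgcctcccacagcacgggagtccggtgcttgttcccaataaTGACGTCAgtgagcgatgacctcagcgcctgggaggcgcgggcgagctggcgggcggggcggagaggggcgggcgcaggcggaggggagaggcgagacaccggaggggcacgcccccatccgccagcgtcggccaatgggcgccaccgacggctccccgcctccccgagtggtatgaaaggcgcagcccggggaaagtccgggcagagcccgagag
Dusp1: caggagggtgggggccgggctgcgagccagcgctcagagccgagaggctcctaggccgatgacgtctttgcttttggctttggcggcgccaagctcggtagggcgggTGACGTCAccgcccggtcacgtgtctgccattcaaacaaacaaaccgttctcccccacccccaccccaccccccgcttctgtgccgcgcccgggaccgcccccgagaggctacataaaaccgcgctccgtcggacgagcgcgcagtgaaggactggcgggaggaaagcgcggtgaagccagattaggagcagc
Fos: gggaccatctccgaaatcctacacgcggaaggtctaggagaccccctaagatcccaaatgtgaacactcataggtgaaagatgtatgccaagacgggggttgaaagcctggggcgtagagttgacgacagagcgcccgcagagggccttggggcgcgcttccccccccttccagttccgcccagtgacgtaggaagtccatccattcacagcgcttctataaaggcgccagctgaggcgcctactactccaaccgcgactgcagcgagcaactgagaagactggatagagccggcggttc
Junb: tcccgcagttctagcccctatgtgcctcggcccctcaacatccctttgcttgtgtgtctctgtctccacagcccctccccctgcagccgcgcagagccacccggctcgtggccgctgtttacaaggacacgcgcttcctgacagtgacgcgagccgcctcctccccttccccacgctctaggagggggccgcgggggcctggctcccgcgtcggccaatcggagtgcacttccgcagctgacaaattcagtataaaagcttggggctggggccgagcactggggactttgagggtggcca

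The nearest contrast was formed in the colon, where CD81+ FB and CD90+ FB together were set against colonic Fgfr2+ FB. By the study's single-cell correlations, colonic Fgfr2+ FB match both Fgfr2+ and Igfbp5+ FB of the small intestine. Small intestinal Igfbp5+ FB lie in the CD34+ gate, so the populations of the 2 contrasts do not fully correspond. The labels give colonic Fgfr2+ FB as CD34-positive, so an effect of the tissue cannot be told apart from an effect of the gate. In the colon 70 of 16505 genes (0.424%) were called, 18 higher in CD81+ and CD90+ FB and 52 higher in Fgfr2+ FB. The small intestinal and colonic fold changes differed in 167 genes (1.01%). That count became 65, 75 and 75 without replicates 1, 2 and 3 of small intestinal CD34+ FB, 99 and 82 without replicates 2 and 3 of colonic Fgfr2+ FB, and 107 without replicate 3 of colonic CD90+ FB. Of the 70 genes called in the colon, 25 were also called in the small intestine with the same sign. The 44 leading genes were chosen for their small intestinal fold changes or p-values, which favours larger values there than in the colon. Of these 44, 36 had the same sign in the colon, and 1 was called there. In size or in sign 26 differed, 20 of the 23 higher in CD34+ FB and 6 of the 21 higher in Fgfr2+ FB.

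**Figure D4:**
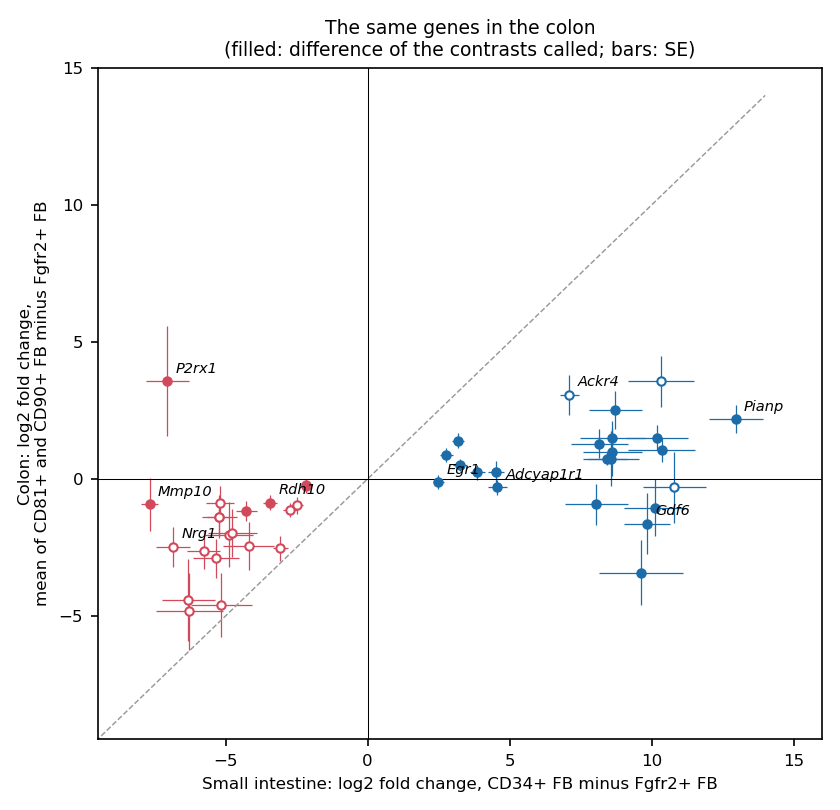
Small intestinal against colonic log2 fold change of 44 leading genes with SE, filled where the difference was called (26 genes). Fitted values of genes with 0 counts in a population are not bounds.

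The genes called in both organs include the following. *Ebf1* was higher in colonic CD81+ and CD90+ FB (log2 fold change 3.24, SE 0.44, edgeR adjusted p = 0.00309), and *Slit3* was as well (log2 fold change 1.56, SE 0.29, edgeR adjusted p = 0.0195). *Acta2* (log2 fold change -2.41, SE 0.33, edgeR adjusted p = 0.00336), *Fgf10* (log2 fold change -1.89, SE 0.27, edgeR adjusted p = 0.00419) and *Runx2* (log2 fold change -1.62, SE 0.33, edgeR adjusted p = 0.0342) were higher in colonic Fgfr2+ FB. So were *Bmp5* (log2 fold change -1.79, SE 0.37, edgeR adjusted p = 0.0352), *Col6a4* (log2 fold change -3.33, SE 0.41, edgeR adjusted p = 0.00126), *Col27a1* (log2 fold change -2.00, SE 0.35, edgeR adjusted p = 0.0130), *Lama1* (log2 fold change -2.24, SE 0.36, edgeR adjusted p = 0.00738) and *Slitrk6* (log2 fold change -2.53, SE 0.46, edgeR adjusted p = 0.0195). The difference between the organs was not called for these genes, which is no test of equality. *Ackr4* had a positive colonic fold change that was not called (log2 fold change 3.07, SE 0.74, edgeR adjusted p = 0.0894), at 476 ± 162 CPM (mean ± SD) in colonic CD81+ FB, 19.3 ± 17.2 in CD90+ FB and 11.5 ± 13.9 in Fgfr2+ FB.

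Other genes of the small intestinal contrast were not matched in the colon. *Fbln1*, *Adcyap1r1*, *Mgp*, *Rdh10*, *Has2* and *Myof* were chosen by that difference, which is given for them without a p-value. *Fbln1* read 1455 ± 399, 1464 ± 324 and 1965 ± 535 CPM in colonic CD81+, CD90+ and Fgfr2+ FB (difference 4.19, SE 0.43). *Adcyap1r1* read 175 ± 24.8, 84.8 ± 29.9 and 150.3 ± 33.0 CPM in the same order (difference 4.90, SE 0.44). Colonic Fgfr2+ FB thus carried both genes at levels that small intestinal Fgfr2+ FB lacked. *Egr1* was high in all colonic populations (difference 2.62, SE 0.38, edgeR adjusted p = 0.00180), and *Mgp* was level among them (difference 3.64, SE 0.41). *Igfbp5* changed order, with 340.5 ± 211, 1263 ± 245 and 1482 ± 387 CPM (difference 2.95, SE 0.50, edgeR adjusted p = 0.00713). *Mmp10* was nearly absent from colonic Fgfr2+ FB (1.12 ± 0.745 CPM, difference -6.73, SE 1.48, edgeR adjusted p = 0.0366), and *P2rx1* was not detected there. *Rdh10* remained with the same sign but smaller (log2 fold change -0.87, SE 0.28, edgeR adjusted p = 0.238, difference -2.54, SE 0.45). *Has2* took the opposite sign (log2 fold change 0.98, SE 0.34, edgeR adjusted p = 0.285, difference -4.19, SE 0.53). *Myof*, a membrane repair gene, was called in the colon (log2 fold change 1.56, SE 0.31, edgeR adjusted p = 0.0330) but not in the small intestine (log2 fold change -0.93, SE 0.24, edgeR adjusted p = 0.0761). Among all 10 sorted populations, 8 of the 23 genes leading towards CD34+ FB had their highest mean in CD34+ FB and 7 in colonic CD81+ FB, and 10 of the 21 leading towards Fgfr2+ FB had it in Fgfr2+ FB.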

How the data were processed

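The authors deposited kallisto estimated counts, TPM and effective lengths for each transcript, and the deposited counts, which are expected counts and not whole numbers, were summed to genes and rounded. TPM served only for length-scaled counts and for shares of the strongest transcript, and the effective length ("other" unit in the deposited files) for length scaling. The submitters' processing notes name Trim Galore 0.4.0, FastQC 0.11.2 and kallisto 0.42.5. The transcript set is not given in the sources used here. By Ensembl identifier 97116 of 98492 transcripts were matched to GENCODE M21, giving 32342 genes.

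A gene was kept when 3 or more libraries held 6 or more counts of it, and tests were run in R 4.3.3 with edgeR 4.0.16 (quasi-likelihood F-test, TMM scaling, prior count 2 for fitted fold changes). A gene was called at an adjusted p (Benjamini and Hochberg) below 0.05 with an absolute log2 fold change above 1.5. Alternatives used DESeq2 1.42.0 and limma 3.58.1. The code was tested on simulated data.

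Genes named are those of the gates and labels, the first 15 per direction by fold change at 10 CPM or more, the first 10 per direction by p-value, the first 5 per direction by difference from the colon, and members of 44 lists that were called or reached 50 CPM. Members and lists were chosen with earlier results of these data known. Groups with 0 counts were set to 3 counts per library for bounds, and ratios of sparse counts carry 95% intervals. Genes sharing 50% or more of their 31-base stretches with other genes were taken as uncertain. Results of some list members and 1 promoter are not reported here.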

Additional observations from a re-analysis of the deposited data

Results flagged for a closer look

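Differences between the small intestinal and the colonic log2 fold change are listed here for every leading gene where that difference was called, and their causes were not tested. Among genes named in the gates and labels the difference was 2.18 for *Cd34* and 2.95 for *Igfbp5*.

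Genes with few or no counts in small intestinal Fgfr2+ FB gave fitted differences that are not bounds, namely 11.07 for *Pianp*, 9.58 for *Slc16a10*, 8.99 for *Igfbp6*, 11.47 for *Nkain4*, 11.56 for *Gdf6* and 13.35 for *3425401B19Rik*. Of the same kind were 6.28 for *Fmnl1*, 7.74 for *Thrb*, 7.24 for *Flrt2*, 7.92 for *Ism1*, 7.80 for *Fam129a*, 6.95 for *Chrdl1* and 9.06 for *Ubox5*.

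Genes well counted in both populations and higher in CD34+ FB gave 4.28 for *Lgi2*, 3.64 for *Mgp*, 1.79 for *Aebp1*, 4.90 for *Adcyap1r1*, 2.62 for *Egr1*, 2.77 for *Sparcl1* and 1.93 for *Abi3bp*.

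Genes higher in Fgfr2+ FB gave -6.73 for *Mmp10*, -3.09 for *Lcp2*, -2.54 for *Rdh10*, -1.88 for *Lpl* and -1.92 for *Pros1*. For *P2rx1*, with 0 counts in colonic Fgfr2+ FB, the fitted difference of -10.60 is not a bound.

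Genes chosen only by the difference itself or through a list gave 4.19 for *Fbln1*, 6.14 for *Adh1*, -4.19 for *Has2*, -2.48 for *Myof* and -1.64 for *Itgav*, the last 2 not called in the small intestine.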

How the results depend on the processing

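The count of 394 genes for small intestinal CD34+ FB against Fgfr2+ FB moved to 1058 with DESeq2, to 213 with all 30 libraries in 1 model and to 255 with length-scaled counts. It ran from 59 to 856 when single libraries were left out, low without a CD34+ FB library, where the filter left 288 of the 394 to be tested, and high without an Fgfr2+ FB library. With upper-quartile scaling 78.2% of the called genes were higher in CD34+ FB, against 68.8% with TMM. The limma voom fit with a weight for each population, added after the data had been seen because the spreads of the populations differ, called 324 genes, 141 higher in CD34+ FB and 183 higher in Fgfr2+ FB. The cause of the other shifts was not tested.

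The count of 167 genes for the difference of the small intestinal and the colonic contrast moved to 279 without a filter, to 539 with DESeq2, to 40 with all 30 libraries in 1 model, to 75 with colonic CD81+ FB alone and to 299 with colonic CD90+ FB alone. Leaving out single libraries gave 65 to 220.

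A value was counted as reversed where its sign changed and it was called in the chosen analysis or in the alternative. Among named genes this held only for *Vegfc*, at -0.02 in the chosen analysis, 2.21 without replicate 1 of Fgfr2+ FB and -0.54 without replicate 2.

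Replicate numbers were not taken as pairs. Deviations of libraries with the same number correlated at 0.041, 0.055 and 0.078, none above 0.1. The 6 pairs with unlike numbers had negative values, which follow largely from the positive ones because deviations sum to 0 within a group, and whether the numbers mark mice cannot be settled here. The study speaks of 3 sorts for each population and of both organs being taken from shared animals, without naming the libraries concerned. With the number as a block, small intestinal CD34+ FB against Fgfr2+ FB gave 279 genes and the difference of the small intestinal and the colonic contrast gave 144.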
